A study of Homo sapiens with 6 samples.

Results

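The BCL2 family, 10 of its genes in all, was examined in HT1080, an established cell line of human fibrosarcoma origin. The members were BCL2A1, BCL2, BCL2L1, MCL1, BAX, BAK1, BID, BIK, PMAIP1 and BCL2L11. Every probe set named for 1 of these genes alone was taken, which gave 23 of the 22283 probe sets on the array, and 10 of the 11963 genes that have such a probe set. BCL2A1 was chosen by its low signals on the integrin alpha3 siRNA arrays in an earlier reading of the same values, and the other 9 genes were added by family name, with earlier results of these arrays known. For BCL2A1 the comparisons that use the alpha3 siRNA arrays are therefore given as a description, without a test. Its comparison of MT1-MMP siRNA with mock uses mock arrays that took part in the choice. An interval or p-value given for it is thus not independent of the choice.

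Total RNA had been hybridised to 6 single-channel oligonucleotide arrays, 2 in each of 3 groups. The first group carried a pGUS vector that expresses GFP together with an siRNA against the mRNA of MT1-MMP (gene MMP14), a membrane-anchored matrix metalloproteinase. The second carried the same vector with an siRNA against integrin alpha3 (gene ITGA3), a laminin receptor subunit. The third was the mock group, with pGUS expressing GFP only, so that vector and GFP were common to all 6 arrays. The mock arrays thus carried no siRNA. A difference from mock shared by both siRNA groups cannot be told apart from an effect of expressing any siRNA, which was not tested. Whether the cells were clones or pools, and whether arrays of a group stand for separate cultures, is not given in the sources used here. A p-value thus measures the spread between arrays only, and that spread may be technical.

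Proteins of the BCL2 family decide whether the outer membrane of the mitochondrion stays closed. BCL2, BCL-XL (from BCL2L1), MCL1 and BCL2A1 are guardians that bind and hold the pore-forming proteins BAX and BAK1. The BH3-only proteins BID, BIK, NOXA (from PMAIP1) and BIM (from BCL2L11) sense stress and either occupy the guardians or activate the pore formers, after which cytochrome c leaves the mitochondrion and caspases are activated. BCL2A1 is known as a target of NF-kappaB, and MCL1 for the short life of its mRNA and protein.

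Both siRNA targets had their lowest mean in the group carrying their siRNA. MMP14 had signals of 812 and 717 with MT1-MMP siRNA, 999 and 1804 under alpha3 siRNA, and 1971 and 3064 on the mock arrays (log2 fold change of MT1-MMP siRNA over mock -1.65, limma adjusted p = 0.123). ITGA3 had 1481 and 1634 with MT1-MMP siRNA, 148 and 347 under alpha3 siRNA, and 1139 and 1290 on the mock arrays (log2 fold change of alpha3 siRNA over mock -2.25, limma adjusted p = 0.164, and -2.79 with an adjusted p of 0.0242 without alpha3 siRNA replicate 2). A fold change here is a difference of group means of log2(signal + 32), and a probe set was tested where its mean on that scale lay above the 40th percentile, a signal of about 47.5 (the filter). Array medians lay between 72.9 and 83.1. Of the mesenchymal markers VIM was brightest, at between 12271 and 17700, while the epithelial marker EPCAM lay between 2.4 and 6.7 and KRT18, an epithelial keratin, reached 3220. BCL2A1 is also known from leukocytes. Of 14 leukocyte markers 13 were found, with 17 probe sets of which 8 lay above the filter, and their summed signal was 1022 and 1225 with MT1-MMP siRNA, 907 and 1862 under alpha3 siRNA, and 1151 and 1464 on the mock arrays. The leukocyte sums overlapped between all groups, and so did those of the endothelial markers (213 to 216 with MT1-MMP siRNA, 127 to 276 under alpha3 siRNA, 143 to 272 on the mock arrays). The epithelial sums, mostly KRT18 and KRT8, did not overlap, at 2276 to 2717 with MT1-MMP siRNA, 4183 to 4616 under alpha3 siRNA and 3010 to 3202 on the mock arrays. The mesenchymal sums were 98141 to 133414 with MT1-MMP siRNA, above both 60404 to 77929 under alpha3 siRNA and 56603 to 80696 on the mock arrays. The part of these marker levels in the family's values was not tested. PTPRC, which defines leukocytes, stayed between 2.6 and 21.9. Without LCP1, which was bright (307 to 991), the leukocyte probe sets had signals from 2.1 to 145 with a median of 41.4.

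BCL2A1 lay below both mock arrays on all 4 siRNA arrays, of which the 2 with alpha3 siRNA are those it was chosen by. MCL1 had lower means with alpha3 siRNA than on the mock arrays on each of its 5 probe sets. BID had lower signals with MT1-MMP siRNA than on the mock arrays on both of its probe sets. BAK1 lay lower in both siRNA groups than on the mock arrays by a smaller amount. BCL2 and BCL2L1 had probe sets that differed in sign, and BAX and PMAIP1 had 95% intervals that include 0. In the limma fit over 11828 probe sets above the filter, 0 of the 19 family probe sets above it were called at an adjusted p under 0.05 with MT1-MMP siRNA against mock, where 0.0169% of all probe sets tested were called. With alpha3 siRNA against mock 0 of the 18 family probe sets other than that of BCL2A1 were called, beside 0.00845% of all. At an unadjusted p under 0.05 stood 14.1% of all probe sets in the MT1-MMP siRNA comparison, and in the family, leaving BCL2A1 aside, 1 probe set of BID. In the alpha3 siRNA comparison it was 5.36% of all, and in the family, leaving BCL2A1 aside, 1 probe set each of MCL1 and BCL2L1.

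**Figure D1:**
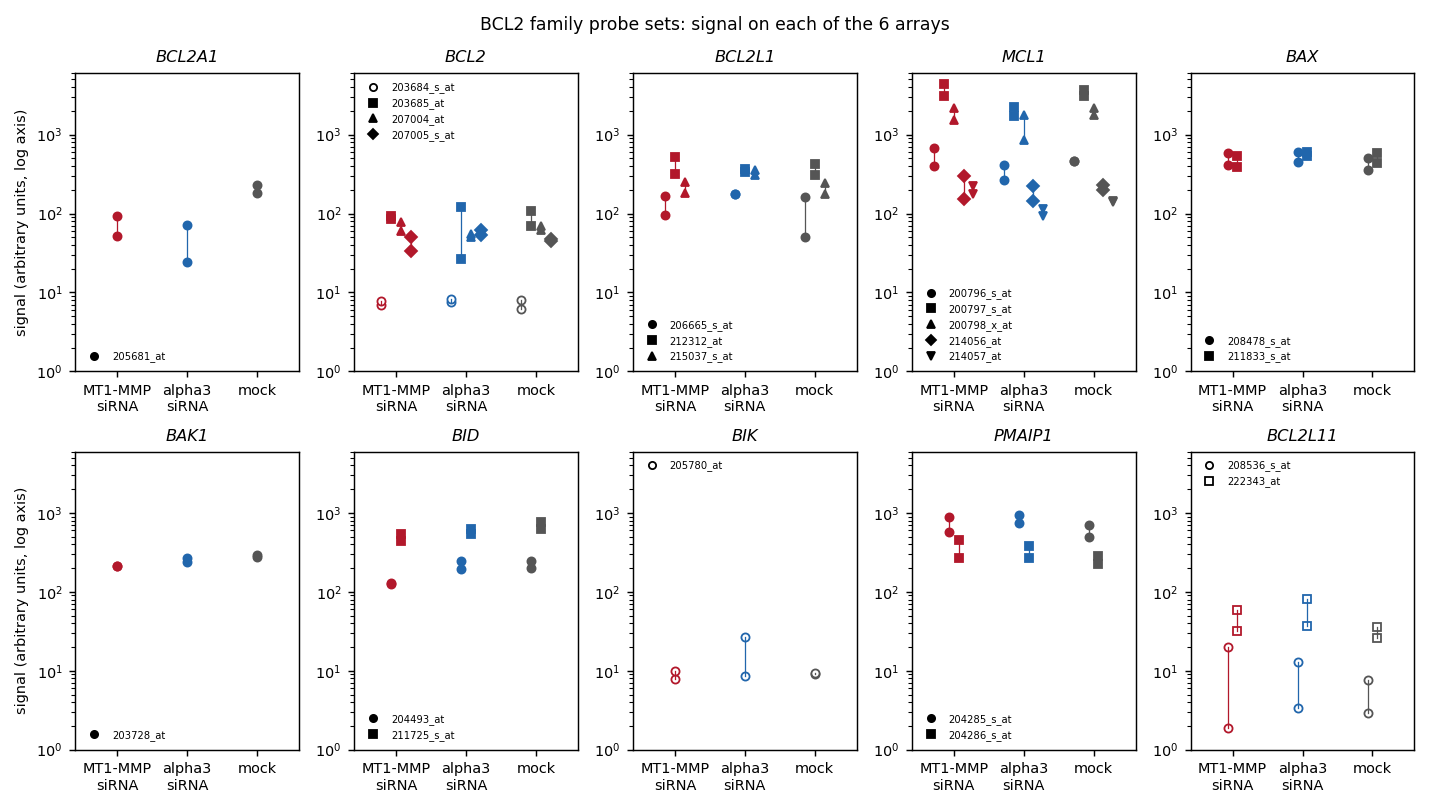
Signal of each BCL2 family probe set (log axis, arbitrary units) on the 2 arrays of each group, with a line joining the 2 arrays, MT1-MMP siRNA in red, alpha3 siRNA in blue and mock in grey. Open symbols are the 4 probe sets below the filter. BCL2A1 is lower on all 4 siRNA arrays (24.5 to 93.6) than on the mock arrays (181 and 233).

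BCL2A1, a guardian that binds BH3-only proteins such as BIM and NOXA, is represented by 1 probe set, 205681_at. Its signals were 93.6 and 51.8 with MT1-MMP siRNA, 24.5 and 71.2 under alpha3 siRNA, and 233 and 181 on the mock arrays. The siRNA arrays did not overlap with the mock arrays in either comparison, while the 2 siRNA groups overlapped with each other. Means were 72.7 ± 29.6 with MT1-MMP siRNA, 47.9 ± 33.0 with alpha3 siRNA and 207 ± 36.9 on the mock arrays (SD, n = 2 each). With MT1-MMP siRNA against mock the log2 fold change of log2(signal + 32) was -1.21 (SE 0.34, 95% interval -1.98 to -0.44), which did not pass the threshold over all probe sets (limma adjusted p = 0.203). With alpha3 siRNA against mock, the comparison for which the gene was chosen, it was -1.64. MT1-MMP siRNA minus alpha3 siRNA gave 0.43, a value smaller than the gap of 0.87 between the 2 alpha3 siRNA arrays. Both comparisons with mock share the 2 mock arrays, against which the gene was chosen. The interval and adjusted p with MT1-MMP siRNA are therefore not independent of the choice, and no support is read from them. The alpha3 siRNA value was -2.27 with an offset of 1 and -1.07 with an offset of 100, in place of 32. The signals of all 4 siRNA arrays fell within the range of the leukocyte probe sets without LCP1 (2.1 to 145), and those of the mock arrays lay above it. In RNA from whole cultures, fewer cells that express a gene and less RNA per cell cannot be told apart.

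CXCL8, the chemokine interleukin 8 and another gene known as an NF-kappaB target, is shown beside BCL2A1 because its mean signal had the same order, highest on the mock arrays and lowest with alpha3 siRNA. It was picked for this likeness, and nothing is read from the pair about NF-kappaB. The 10 NF-kappaB subunits and targets above the filter, CXCL8 among them, were split. By their brightest probe sets, 5 lay above 0 and 5 below in each comparison with mock. CXCL8 had 505 and 270 with MT1-MMP siRNA, 101 and 181 under alpha3 siRNA, and 795 and 1647 on the mock arrays. The 250 bases before the RefSeq start of each gene (GRCh38.p14) are printed with 3 motifs in capitals. These are a loose kappaB pattern (GGG, any 5 bases, CC), the AP-1 pattern TGANTCA and the letters TATAAA, each searched on both strands, and no matches of different motifs overlapped in these sequences. The BCL2A1 window is chr15:79971197-79971446 on the minus strand and the CXCL8 window is chr4:73740319-73740568 on the plus strand.
BCL2A1: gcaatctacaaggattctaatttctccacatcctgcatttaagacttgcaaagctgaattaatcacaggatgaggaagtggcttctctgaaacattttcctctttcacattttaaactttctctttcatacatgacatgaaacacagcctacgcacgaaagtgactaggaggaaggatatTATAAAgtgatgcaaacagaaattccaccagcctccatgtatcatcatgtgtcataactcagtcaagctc
CXCL8: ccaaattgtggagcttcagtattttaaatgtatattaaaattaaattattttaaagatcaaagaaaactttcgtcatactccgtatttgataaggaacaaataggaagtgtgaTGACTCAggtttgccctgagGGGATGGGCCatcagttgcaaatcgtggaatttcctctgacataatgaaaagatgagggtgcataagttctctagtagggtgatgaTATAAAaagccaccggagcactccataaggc

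The BCL2A1 window held 1 match, TATAAA from base 70 to base 65 before the start. The CXCL8 window held an AP-1 match from base 137 to base 131, a kappaB match from base 117 to base 108, and TATAAA from base 31 to base 26. Of 35116 promoter windows of this length, 54.4% held the kappaB pattern, 6.57% the AP-1 pattern and 10.7% TATAAA. A promoter window was found for 8 of the 10 family members, in 13 windows. The kappaB pattern stood in windows of 5 of them (BAK1, BCL2, BCL2L11, BID and PMAIP1), TATAAA in windows of 2 (BCL2A1 and BCL2L1), and AP-1 in 0. A match of letters is a description of these windows, and a window without one says nothing about binding elsewhere. Whether a marked stretch is a site that NF-kappaB or AP-1 binds was not tested. A binding site with letters outside these patterns would stay in lower case.

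MCL1, the short-lived guardian, has 5 probe sets. On the brightest, 200797_s_at, signals were 3048 and 4379 with MT1-MMP siRNA, 1722 and 2255 under alpha3 siRNA, and 3658 and 3054 on the mock arrays. Both alpha3 siRNA arrays lay below the other 4, and the MT1-MMP siRNA arrays overlapped with mock. The log2 fold change with alpha3 siRNA against mock was -0.75 (SE 0.23, 95% interval -1.27 to -0.23, limma adjusted p = 0.892). The other 4 probe sets gave -0.67, -0.42, -0.38 and -0.21 for alpha3 siRNA against mock. On 4 of the 5 probe sets the alpha3 siRNA arrays lay wholly below mock, as did 17.7% of all probe sets tested. On 200798_x_at they did so narrowly (858 and 1774 with alpha3 siRNA, 2200.5 and 1799 on the mock arrays). That alpha3 siRNA pair lay 1.02 apart on the log2 scale, more than the change of -0.67. On 200796_s_at the alpha3 siRNA pair lay 0.57 apart, also more than the change of -0.42. On 214056_at the alpha3 siRNA arrays overlapped with mock (144 and 227 with alpha3 siRNA, 197 and 232 on the mock arrays). The probe sets measure the same RNA samples and are not replicates.

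With MT1-MMP siRNA against mock the 5 probe sets of MCL1 lay between -0.12 and 0.41 with both signs. The 2 siRNAs differed most on 200797_s_at, with MT1-MMP siRNA minus alpha3 siRNA at 0.88 (SE 0.23, 95% interval 0.36 to 1.40, limma adjusted p = 0.0819). Next came 214057_at, which had 226 and 178 in the MT1-MMP siRNA group, against 113 and 93.4 in the alpha3 siRNA group (0.79, SE 0.21, limma adjusted p = 0.0914). Neither passed the threshold.

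BCL2L1 encodes the guardian BCL-XL and, by alternative splicing, a shorter form that promotes death, and its 3 probe sets did not move together. On the brightest, 212312_at, signals were 314 and 519 with MT1-MMP siRNA, 371 and 333 under alpha3 siRNA, and 427 and 308 on the mock arrays, and all groups overlapped. On 215037_s_at they were 182 and 254 with MT1-MMP siRNA, 355 and 304 under alpha3 siRNA, and 177 and 242 on the mock arrays. Here both alpha3 siRNA arrays lay above the other 4, with a log2 fold change of 0.59 against mock (SE 0.24, 95% interval 0.05 to 1.13, limma adjusted p = 0.892). On 206665_s_at the alpha3 siRNA arrays were both at 176, against 50.9 and 160 on the mock arrays, a gap of 1.21 on the log2 scale within the mock pair that exceeds the log2 fold change of 0.72. For alpha3 siRNA against mock the brightest probe set gave -0.04, so the probe sets of BCL2L1 differ in sign. Which transcript each probe set reads is not given in the sources used here.

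BCL2, the founding guardian of the family, was dim on all arrays. Of its 4 probe sets, 203684_s_at lay below the filter at signals between 6.1 and 8.2 on the 6 arrays. On 203685_at, the brightest, signals were 85.0 and 93.1 with MT1-MMP siRNA, 26.6 and 122 under alpha3 siRNA, and 68.6 and 108 on the mock arrays. The alpha3 siRNA pair spanned the whole range of the other arrays. The other 2 probe sets above the filter had signals between 33.7 and 78.4, and with alpha3 siRNA against mock they gave log2 fold changes of opposite sign, -0.19 and 0.19. All BCL2 signals lay within the range of the leukocyte probe sets without LCP1.

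BAX and BAK1 form the pores. BAX had 394 and 533 with MT1-MMP siRNA, 542 and 595 under alpha3 siRNA, and 594 and 432 on the mock arrays on 211833_s_at. Its other probe set, 208478_s_at, had 418 and 588 with MT1-MMP siRNA, 454 and 609 under alpha3 siRNA, and 511 and 353 on the mock arrays. Both siRNA groups overlapped with mock on both probe sets, and the 95% intervals of the log2 fold changes reached from -0.67 to 0.81 with MT1-MMP siRNA and from -0.38 to 0.89 with alpha3 siRNA. BAK1, with 1 probe set, had 211 on both MT1-MMP siRNA arrays, 237 and 267 with alpha3 siRNA, and 280.5 and 291 on the mock arrays. The 3 groups of BAK1 did not overlap, with mock highest and MT1-MMP siRNA lowest, but the differences were small. The log2 fold change was -0.39 with MT1-MMP siRNA against mock (SE 0.19, 95% interval -0.82 to 0.05, limma adjusted p = 0.394) and -0.16 with alpha3 siRNA against mock (limma adjusted p = 0.931).

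BID, the BH3-only protein that caspase-8 cleaves to carry death receptor signals to the mitochondrion, has 2 probe sets. On 204493_at signals were 129 and 126 with MT1-MMP siRNA, 193 and 248 under alpha3 siRNA, and 198 and 243 on the mock arrays. Both MT1-MMP siRNA arrays lay below the other 4, whose values were much alike between alpha3 siRNA and mock. The log2 fold change was -0.65 with MT1-MMP siRNA against mock (SE 0.21, 95% interval -1.14 to -0.17, limma adjusted p = 0.248) and -0.65 with MT1-MMP siRNA against alpha3 siRNA (limma adjusted p = 0.129). On the brighter 211725_s_at signals were 447 and 536 with MT1-MMP siRNA, 627 and 548 under alpha3 siRNA, and 618 and 764 on the mock arrays. The MT1-MMP siRNA arrays again lay below the other 4, with -0.46 against mock (SE 0.21, limma adjusted p = 0.359). Against mock, alpha3 siRNA gave 0.00 on 204493_at (95% interval -0.49 to 0.48) and -0.22 on 211725_s_at.

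PMAIP1 encodes NOXA, a p53-induced BH3-only protein that occupies MCL1 and BCL2A1. On 204285_s_at signals were 578 and 894 with MT1-MMP siRNA, 742 and 943 under alpha3 siRNA, and 703 and 500 on the mock arrays. On 204286_s_at they were 265 and 456 with MT1-MMP siRNA, 271 and 379 under alpha3 siRNA, and 284 and 226 on the mock arrays. The alpha3 siRNA arrays lay above both mock arrays on the first probe set and overlapped with them on the second. Log2 fold changes against mock were 0.27 on 204285_s_at and 0.41 on 204286_s_at with MT1-MMP siRNA. With alpha3 siRNA they were 0.47 and 0.30 in that order of probe sets, and all 4 had 95% intervals that include 0.

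BIK and BCL2L11 had no probe set above the filter and were not tested. The BIK probe set, 205780_at, had 7.9 and 9.8 with MT1-MMP siRNA, 26.7 and 8.6 under alpha3 siRNA, and 9.2 and 9.3 on the mock arrays, so that 1 alpha3 siRNA array stood apart from the other 5. BCL2L11 had signals between 1.9 and 19.8 on 208536_s_at. On 222343_at it had 59.3 and 32.3 with MT1-MMP siRNA, 80.1 and 36.6 under alpha3 siRNA, and 25.7 and 36.0 on the mock arrays. Detection calls were not used here, and signals of this size were also given by the leukocyte markers.

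**Figure D2:**
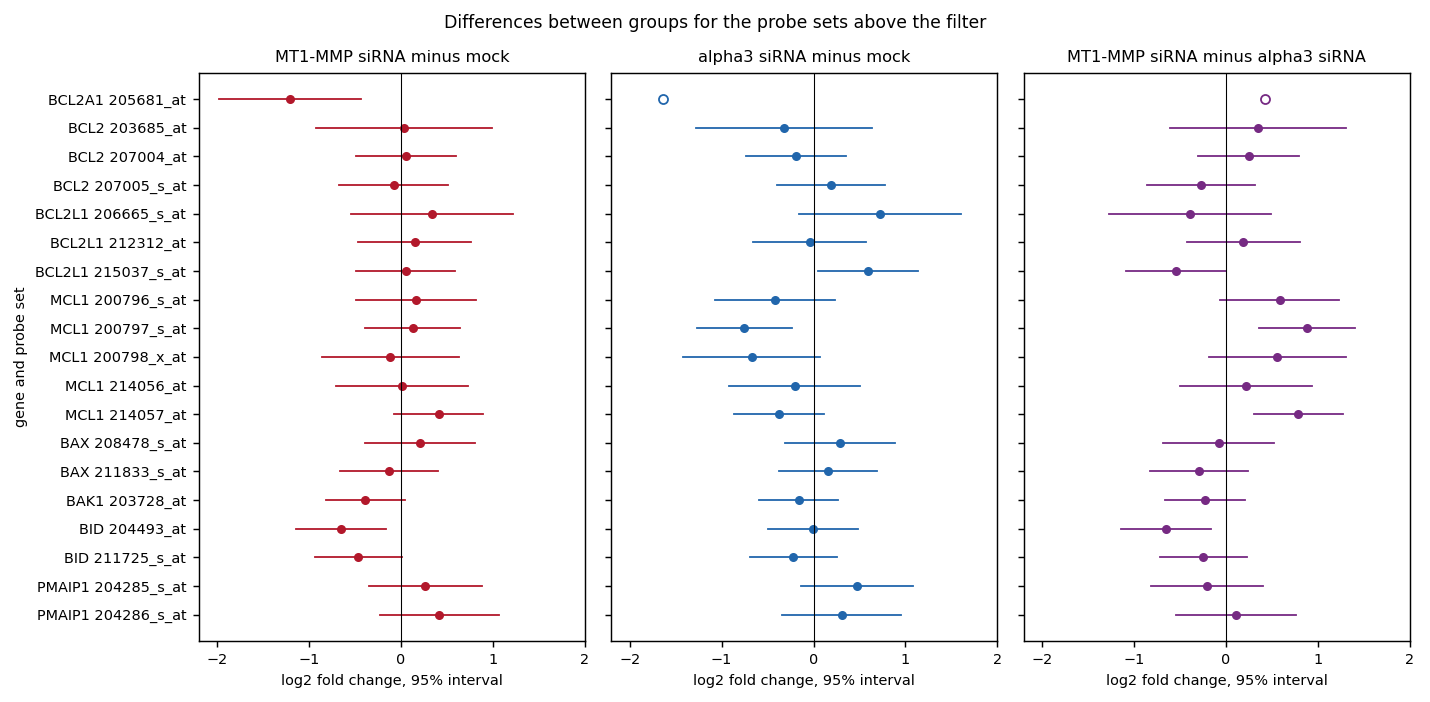
Log2 fold change of log2(signal + 32) for the 19 family probe sets above the filter in the 3 comparisons, with the 95% interval from limma. Open circles show BCL2A1 in the comparisons that use the alpha3 siRNA arrays, as a description without interval. BCL2A1 lies lowest against mock (-1.21 and -1.64), and the 5 probe sets of MCL1 lie below 0 with alpha3 siRNA (-0.75 to -0.21).

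Counted by probe set, 12 of the 19 above the filter lay above 0 and 7 below with MT1-MMP siRNA against mock, with a median of 0.05 against 0.00 over all probe sets tested. The MT1-MMP siRNA pair lay wholly above the mock pair for 1 probe set and wholly below it for 4, 26.3% of the 19 together. Over all probe sets tested 24.3% lay wholly above and 24.8% wholly below, 49.0% together. The 4 lower ones were those of BCL2A1, BAK1 and BID. With alpha3 siRNA against mock 7 lay above 0 and 12 below, with a median of -0.16 against -0.01. Here 4 lay wholly above mock and 7 wholly below, 57.9% of the 19 together, beside 16.7% above, 17.7% below and 34.4% together among all probe sets tested. Of the 7 lower ones 4 belong to MCL1 and 1 to BCL2A1, which this comparison chose, and nothing is read from the share.

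MT1-MMP siRNA set directly against alpha3 siRNA was the comparison with the most calls over the whole array, at 1.37% of probe sets. By the limma fit 0 of the 18 family probe sets other than that of BCL2A1 were called. An unadjusted p under 0.05 was reached by 22.6% of all probe sets and, leaving BCL2A1 aside, by 3 of the family, 2 of MCL1 and 1 of BID. The MT1-MMP siRNA pair lay wholly above the alpha3 siRNA pair for 3 family probe sets and wholly below it for 7, 52.6% of the 19. Among all probe sets tested 27.5% lay above and 25.6% below, 53.2% together, which is near the share in the family. On the side higher with MT1-MMP siRNA stood 2 probe sets of MCL1 and 1 of BCL2. On the lower side stood 2 of BCL2L1, 2 of BID, and 1 each of BCL2, BAX and BAK1.

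The genes that act with the family were followed in 6 lists, by the brightest probe set of each gene above the filter. Of the 52 genes above the filter, 0 passed the limma threshold in either comparison with mock, where 0.0124% of all 8045 genes tested passed in each. An unadjusted p under 0.05 was had by 6 (11.5%) in the MT1-MMP siRNA comparison, beside 14.1% of all genes, and by 7 (13.5%) in the alpha3 siRNA comparison, beside 5.57% of all genes. The lists, with CXCL8 in 1 of them, were chosen with earlier results of these arrays known, so neither share is read as a result. Of 15 further BCL2 family and BNIP genes, 8 were above the filter. Their median log2 fold change was 0.19 for MT1-MMP siRNA and -0.24 for alpha3 siRNA, each against mock, where the median of all genes tested was 0.00 and -0.01. BNIP3L, a mitochondrial receptor for mitophagy, had 2304 and 1838 with MT1-MMP siRNA, 606 and 354 under alpha3 siRNA, and 613 and 1286 on the mock arrays. It was the only gene of the 6 lists that passed in any comparison. Between the siRNAs this is 1 of the 52 genes, beside 1.38% of all genes tested. At an unadjusted p under 0.05 stood 12 of the 52 there (23.1%), beside 22.9% of all genes, and nothing is read from these shares. For BNIP3L, MT1-MMP siRNA minus alpha3 siRNA was 2.07 on the brightest probe set (limma adjusted p = 0.0403) and 1.49 on the other. The call was lost without either MT1-MMP siRNA array or either alpha3 siRNA array, at values of 1.71 to 2.44 and adjusted p-values from 0.0588 to 0.280, and it was also lost with an offset of 1, with no filter, with the mean of probe sets and without the trend.

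BNIP3, the close relative of BNIP3L, had 3243 and 2979 with MT1-MMP siRNA, 1761 and 456 under alpha3 siRNA, and 1540 and 1991 on the mock arrays. The MT1-MMP siRNA arrays lay above the other 4, and the alpha3 siRNA pair lay 1.88 apart on the log2 scale. The log2 fold change of alpha3 siRNA over mock was -0.93, or 0.0079 without alpha3 siRNA replicate 2. BCL2L14 gave 0.73 for MT1-MMP siRNA and -0.05 for alpha3 siRNA against mock. BNIP2 gave 0.52 for MT1-MMP siRNA and 0.66 for alpha3 siRNA.

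The 10 mitochondrial death factors and apoptosome genes, all above the filter, had medians of -0.12 for MT1-MMP siRNA and -0.10 for alpha3 siRNA. ENDOG, a mitochondrial nuclease, gave the largest value with MT1-MMP siRNA (0.76) and AIFM1, a flavoprotein of the mitochondrion, with alpha3 siRNA (0.32). The 8 caspases and DFF genes above the filter had medians of -0.20 for MT1-MMP siRNA and -0.23 for alpha3 siRNA. DFFA, the inhibitor of the caspase-activated DNase, gave -0.45 in the MT1-MMP siRNA comparison and -0.56 in the alpha3 siRNA comparison. The inflammatory caspase CASP1 gave -0.17 with MT1-MMP siRNA, where another of its probe sets gave 0.24, and -0.95 with alpha3 siRNA. Of the inhibitor of apoptosis proteins and FLIP, 3 genes of 7 were above the filter, with medians of -0.09 for MT1-MMP siRNA and 0.14 for alpha3 siRNA. BIRC5, survivin, which also serves in mitosis, had 592 and 695 with MT1-MMP siRNA, 1177 and 1269 under alpha3 siRNA, and 1337 and 911 on the mock arrays (log2 fold change -0.75 with MT1-MMP siRNA against mock, limma adjusted p = 0.220). BIRC2, cIAP1, gave -0.09 for MT1-MMP siRNA and 0.21 for alpha3 siRNA.

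The 13 genes whose products modify BCL2 family proteins had medians of 0.08 for MT1-MMP siRNA and 0.05 for alpha3 siRNA. YWHAE, a 14-3-3 protein, gave 0.60 with MT1-MMP siRNA, and USP9X, a deubiquitinase that stabilises MCL1, gave -0.48 with alpha3 siRNA on its brightest probe set and 0.13 on the other. The 10 NF-kappaB subunits and targets above the filter had medians of -0.04 for MT1-MMP siRNA and 0.04 for alpha3 siRNA, and the direction was split, with 5 above and 5 below 0 in each comparison. CXCL8 stood farthest from 0, at -1.55 for MT1-MMP siRNA (limma adjusted p = 0.187) and -2.81 for alpha3 siRNA (limma adjusted p = 0.164). Its other probe set above the filter gave -0.82 for MT1-MMP siRNA and -1.61 for alpha3 siRNA.

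**Figure D3:**
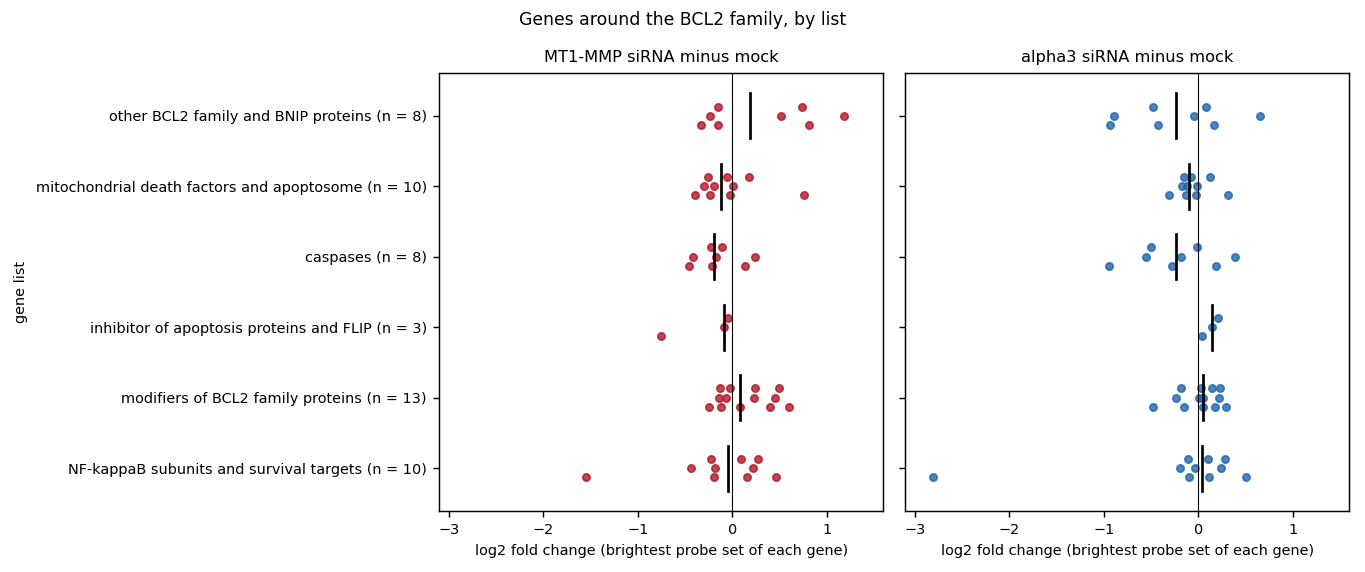
Log2 fold change of the genes in 6 lists around the BCL2 family, each gene by its brightest probe set, with MT1-MMP siRNA minus mock on the left and alpha3 siRNA minus mock on the right. Points are genes and the vertical bar is the median of the list. The medians lie between -0.24 and 0.19, and CXCL8 is the lowest point in both panels (-1.55 and -2.81).

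Over the 6 arrays, 5 genes followed BCL2A1 most closely, by Pearson's r of log2 values among 1996 genes that spanned at least 1 on that scale. They were RAD50, a DNA repair protein (r = 0.960), the guidance ligand SLIT2 (0.949), the phosphodiesterase PDE2A (0.935), RASGRP2, an exchange factor for Rap1 (0.929), and LAD1, an anchoring filament protein (0.925). The arrays share groups and scaling, and the closest of 1996 genes over 6 arrays were picked, so these values are a description. RAD50 had 131 and 93.7 with MT1-MMP siRNA, 81.3 and 151 under alpha3 siRNA, and 322 and 214 on the mock arrays. PDE2A had 112 and 102 with MT1-MMP siRNA, 18.5 and 122 under alpha3 siRNA, and 275 and 192 on the mock arrays. All 5 were higher on both mock arrays than on the 4 siRNA arrays, as was BCL2A1, by which they were picked. CXCL8, shown here because its means had the same order as those of BCL2A1, ranked 9 with r = 0.901, which is no separate result. Among the family MCL1 ranked 225 (r = 0.513) and BCL2 299 (r = 0.445).

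**Figure D4:**
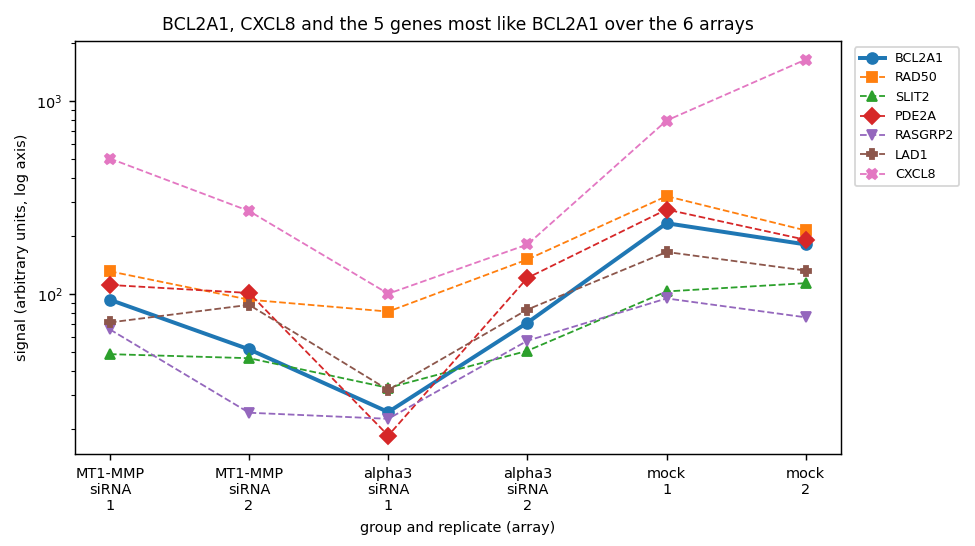
Signal (log axis, arbitrary units) of BCL2A1, the 5 genes most like it and CXCL8 on each array, with the siRNA groups left of mock. Lines join the values of 1 gene and stand for no order of the arrays. BCL2A1 is lowest on alpha3 siRNA replicate 1 (24.5) and highest on mock replicate 1 (233).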

How the data were processed

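The authors deposited 1 linear intensity for each probe set and array. From the values, a mean trimmed to the middle 96% came to 250.1 for each of the 6 arrays, a common scaling made before deposit. Software and background method: not given in the sources used here. Values were floored at 1 and transformed as log2(value + 32), which understates changes of dim genes. Names came from the platform's annotation table, and 19053 of 19065 singly named probe sets matched a RefSeq gene record. Of 22283, those with 1 gene symbol and a mean log2 value above the 40th percentile (6.31, signal 47.5) were tested, 11828 in all. limma 3.58.1 in R 4.3.3 fitted 3 group means to all 6 arrays (lmFit, eBayes with trend, 3 residual degrees of freedom), with Benjamini-Hochberg adjustment over all tested probe sets and calls at 0.05. The number of arrays limits the precision. An SE and a 95% interval are those of the log2 fold change.

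For MT1-MMP siRNA against mock, 10 sets of the 11828 probe sets were simulated, each with 200 changed probe sets. Arrays were drawn independently from normal distributions with the spread of each probe set. Recovered were 24.6% of changes of 1 on the log2 scale, 76.0% of changes of 2 and 93.5% of changes of 3, and 4.09% of calls were false. These rates hold for that setting and are not the power of the real arrays. Members and lists were chosen with earlier results of these data known. Named genes were all members, both siRNA targets, called list genes, list genes with the largest fold against mock (up to 3 for further family genes, 1 for each other list, fewer than the planned 3) and the 5 genes closest to BCL2A1 by Pearson's r. Promoter sequences are from RefSeq (GRCh38.p14). Figures were drawn with matplotlib 3.10.9. The 17 alternatives covered normalization, offset, filter, probe sets per gene, trend, groups fitted, a replicate block and each array left out.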

Additional observations from a re-analysis of the deposited data

How the results depend on the processing

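Of 22 tested log2 fold changes of the 8 members above the filter, 0 passed the threshold under any of the 17 alternatives that gave a value. BCL2A1 with MT1-MMP siRNA against mock stayed between -1.55 and -0.84 with adjusted p-values from 0.150 to 0.636. The sign turned at least once for 11 of the 22. Leaving out 1 array at a time gave, for MT1-MMP siRNA against mock, -0.21 to 0.27 for BCL2, -0.19 to 0.48 for BCL2L1, -0.13 to 0.39 for MCL1, -0.35 to 0.080 for BAX, -0.035 to 0.57 for PMAIP1 and -0.60 to 0.25 for CASP1. For alpha3 siRNA against mock it gave -1.02 to 0.38 for BCL2, -0.26 to 0.18 for BCL2L1, -0.060 to 0.37 for BAX, -0.19 to 0.094 for BCL2L14, -1.87 to 0.0079 for BNIP3, -0.57 to 0.42 for ENDOG and -0.13 to 0.41 for BIRC5. For MT1-MMP siRNA against alpha3 siRNA it gave -0.35 to 1.05 for BCL2, -0.15 to 0.52 for BCL2L1 and -0.51 to 0.092 for PMAIP1. With all probe sets of a gene averaged, BCL2L1 turned to 0.42 for alpha3 siRNA against mock and to -0.25 between the siRNAs, BAX to 0.036, CASP1 to 0.036 and USP9X to 0.030 for MT1-MMP siRNA against mock. Quantile normalization turned BCL2 to -0.032 for MT1-MMP siRNA against mock. The averages include probe sets of other sign. Otherwise the cause was not tested.

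Calls over the whole array were 2 for MT1-MMP siRNA against mock, 1 for alpha3 siRNA against mock and 162 between the siRNAs. For MT1-MMP siRNA against mock the count was 10 with a common 75th percentile, 4 with an offset of 1, 14 with an offset of 100, 0 with no filter, with a filter at the 60th percentile and with the brightest probe set, 1 without the trend, 12 with the groups compared alone, and 0 to 13 leaving out 1 array. For alpha3 siRNA against mock it was 0 with an offset of 1 and a filter at the 60th percentile, 2 with the brightest or with averaged probe sets, and 0 to 9 leaving out 1 array. Between the siRNAs it was 99 with an offset of 1, 1 with no filter, 93 with averaged probe sets, 84 without the trend, and 0 to 152 leaving out 1 array, with 0 without either MT1-MMP siRNA array, 23 without alpha3 siRNA replicate 1 and 4 without replicate 2. The limma counts of 0 stood beside 380 to 1980 probe sets at an unadjusted p under 0.05 in the comparisons with mock, and 1375 and 2322 between the siRNAs. The cause was not tested. ITGA3 passed with alpha3 siRNA against mock without alpha3 siRNA replicate 2 (-2.79, adjusted p = 0.0242, over a range of 0.0242 to 0.657).

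With the replicate number as a block 6 probe sets were called for MT1-MMP siRNA against mock, 1 for alpha3 siRNA against mock and 114 between the siRNAs, and 0 of the 22 family values passed with it. Deviations of same-numbered arrays had r = -0.19 between mock and MT1-MMP siRNA, -0.17 between mock and alpha3 siRNA and 0.13 between the siRNAs. With so few arrays per group, these values cannot decide whether same-numbered arrays share a culture or hybridisation. That was not tested.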
